A study of Mus musculus with 30 samples.

Results

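The genes described here are 9 components and regulators of the complement system: C3, C4b, Cfb, C1s1, C1ra, Serping1, Cd55, Cd59a and Cr1l. They were chosen by gene symbol, out of 48440 genes counted, and each symbol matched 1 gene. All 9 passed the filter on low counts, which kept 16862 genes. Complement is a cascade of plasma and tissue proteins that opsonises and lyses cells. The classical route starts when C1q binds antibody and activates the proteases C1r and C1s, which cleave C4 and C2. The classical and alternative routes both cleave C3, and regulators on the cell surface or in the fluid around it limit each step, which is how nucleated cells, tumor cells included, avoid damage by complement. The liver makes most of the complement in plasma, and fibroblasts and macrophages make some of it locally.

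RNA was sequenced in bulk from 30 mouse fibrosarcomas that had formed in vivo from 5 lines, each started from a primary tumor induced by the carcinogen methylcholanthrene (MCA). MCA943 gave 4 tumors, MCA948 gave 8, MCA969 gave 8, MCA970 gave 6 and MCA972 gave 4. In the study's classes, NK1.1+ cells do not limit MCA943 and MCA969, the non-sensitive lines, and the other 3 lines are sensitive. The labels call 2 MCA969 tumors, W-1D and W-2D, sensitive. The question asked of the members was how their expression differed between the lines and, within lines, by the letter W or a that the titles carry. The tumors grew in mice of C57BL/6 background, for which the labels give no treatment, time or age. The label for the strain is Ncr1Cre for the MCA943 tumors and Ncr1Cre R26DTA for the 26 others. Cre is driven by Ncr1, the gene of NKp46, and R26DTA holds a diphtheria toxin subunit. Whether this label describes the mouse that gave the line or the mouse that carried the graft was not given. The series speaks of hosts with and without NK cells, but the sources used here do not say which host the letter stands for. Each line comes from 1 primary tumor, so that line, sensitivity and strain label cannot be told apart for MCA943, and p-values measure the spread between tumors of these lines only.

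Before extraction, cells carrying CD45 were depleted with beads. Each tumor had 27745104 to 46537062 counts on genes. Expression is given as CPM, counts per 1000000 after TMM scaling of the library sizes, and as RPKM, the same per kilobase of gene length, where genes are compared with each other. The 6 markers of fibroblasts and mesenchyme summed to between 8739 and 61207 CPM per tumor, and the 8 leukocyte and macrophage markers to between 17.7 and 178 CPM. The 4 adipocyte markers summed to 0.196 CPM at most, the 6 markers of T and NK cells to 10.2 CPM at most, and the 5 endothelial markers to between 18.3 and 484 CPM. Library numbers, read from the column names, fell into 3 runs of close numbers. MCA943 lay wholly in the third, with 6 MCA948 tumors, and shared no run with MCA969, MCA970 or MCA972. The index set splits the tumors by low or high S number in the column names. Neither run nor index set is called a batch in the labels.

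Transcripts of 8 members were more abundant in MCA943 than in MCA948, and those of 5 of them, C3, C1s1, C1ra, Serping1 and Cr1l, were more abundant in MCA943 than in each of the 4 other lines. C1s1, C1ra and Serping1 were also less abundant in MCA948 than in each of the 4 others. Lines were compared in pairs with edgeR's quasi-likelihood test in 1 fit of all 30 tumors, and calls needed a p under 0.05 after Benjamini-Hochberg adjustment, with a change of at least 1 on the log2 scale in either direction. Of 90 combinations of member and pair, 48 were called, with both directions counted together. Over the 10 pairs, between 3.91% and 19.8% of all genes were called in a given direction. These shares hold for a single direction, so those of both directions of a pair belong beside the 48. Between MCA943 and MCA948, for example, 17.7% of all genes were called higher and 11.3% lower. Of all genes tested, 4.26% were called higher in MCA943 than in every other line, and 5.68% were called lower in MCA948 than in every other line. The share of all genes whose tumors do not overlap between lines was not computed. Statements on overlap below therefore describe the members only.

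**Figure D1:**
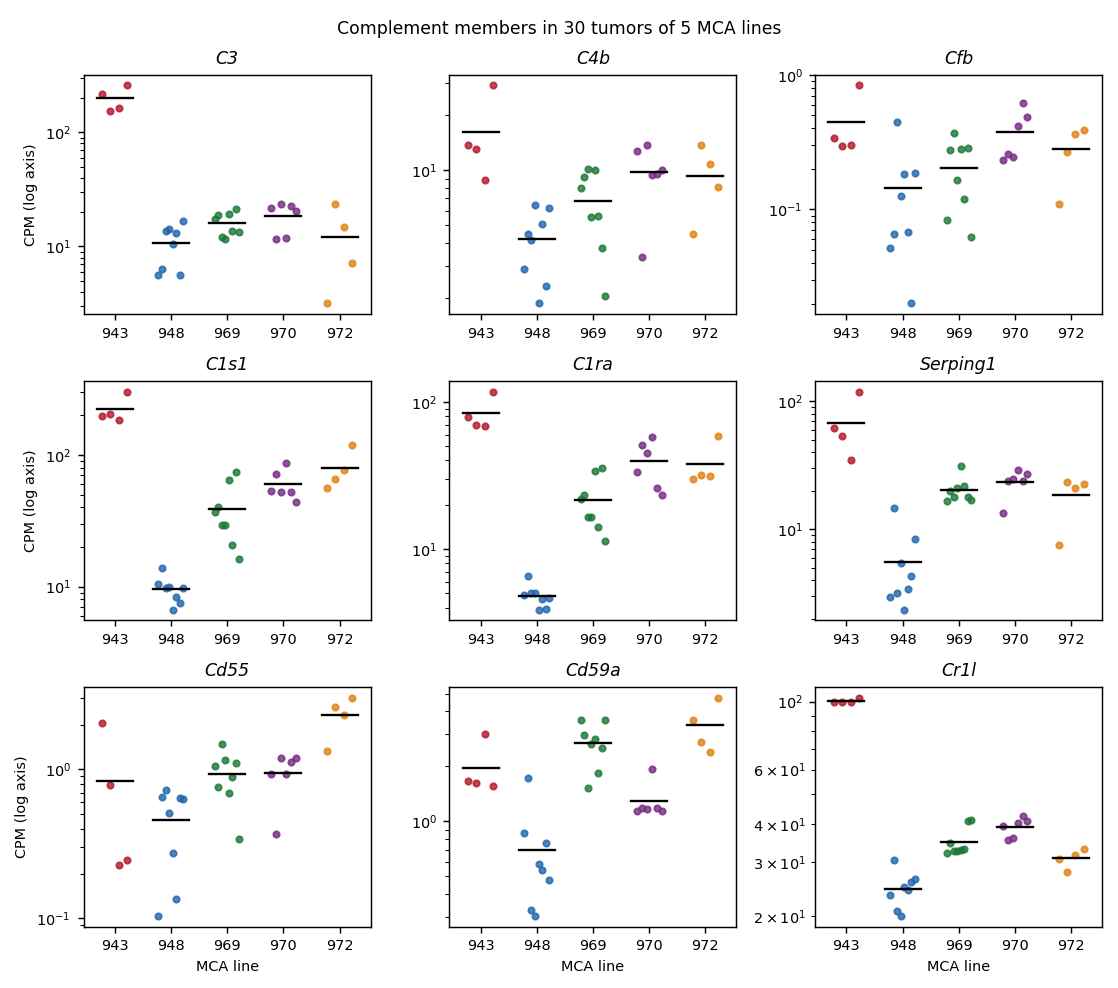
CPM of the 9 members in each of the 30 tumors, on log axes, by MCA line; points are tumors and black bars are means of 4, 8, 8, 6 and 4 tumors. C3, C1s1, C1ra, Serping1 and Cr1l lie highest in MCA943, without overlap with any other line. The share of all genes that separate in this way was not computed.

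Between MCA943 and MCA948, 8 members were higher in MCA943 and 0 were lower, where 17.7% and 11.3% of all genes were called in these directions. The median log2 fold change was 2.04 over the 9 members and -0.01 over all genes. Between MCA943 and MCA969, 7 were higher and 0 were lower (12.1% and 14.9% of all genes), with medians of 1.52 and -0.04. Against MCA970 the numbers were 5 and 0 (12.6% and 14.8% of all genes), with medians of 1.09 and 0.03.

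Against MCA972, 5 members were higher in MCA943 and 1, Cd55, was lower (12.2% and 13.4% of all genes). The counts for MCA948 ran the other way. No member was higher and 5 were lower than in MCA969 (3.91% and 16.8% of all genes), 6 were lower than in MCA970 (9.64% higher and 19.8% lower among all genes) and 6 were lower than in MCA972 (8.27% and 18.5%). The medians of the members were -1.01, -1.23 and -1.75, against -0.04, -0.05 and 0.01 over all genes.

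Few calls separated the other 3 lines in the fit of all tumors without the run or the index set in the model. Cd59a was higher in MCA969 than in MCA970 and no member was lower (10.7% of all genes in each direction). C1s1 and Cd55 were lower in MCA969 than in MCA972 and no member was higher (10.3% of all genes in each direction). Cd55 and Cd59a were lower in MCA970 than in MCA972 and no member was higher (8.56% of all genes higher and 9.01% lower). With 1 or 2 calls among 9 members, these shares are near those of all genes.

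**Figure D2:**
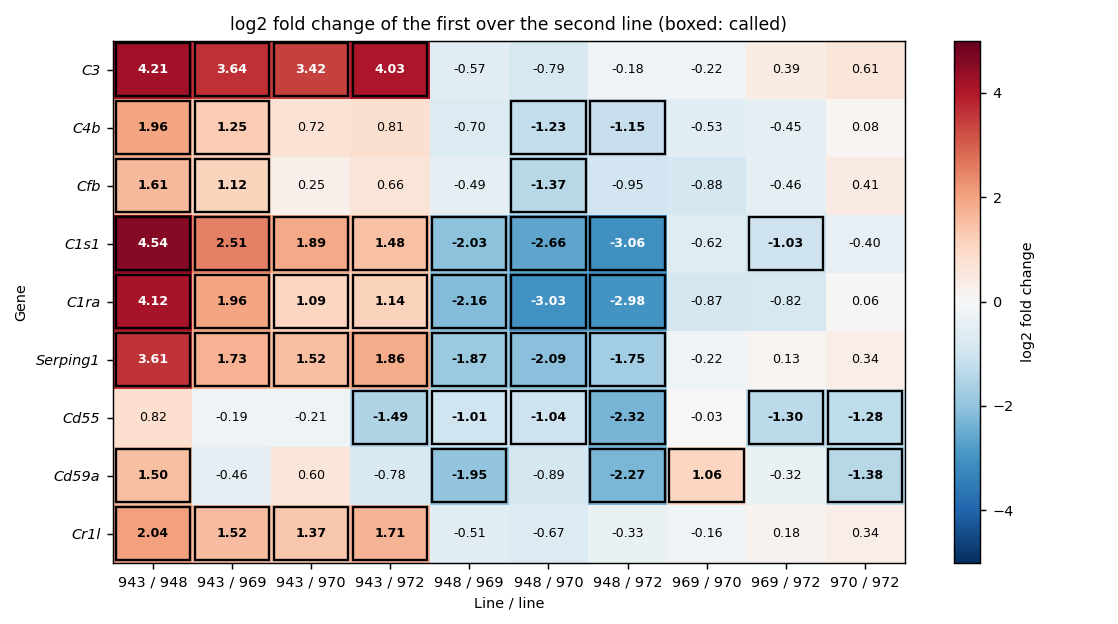
The log2 fold change of each member, as the first line over the second, in the 10 pairs of lines; boxed values in bold were called. Values for MCA943 are mostly positive, those for MCA948 against MCA969, MCA970 and MCA972 are all negative, and the last 3 columns hold 5 calls.

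In fits that each left out 1 tumor, 36 of the 48 calls were kept in all 30, and 29 were kept in these and in the other fits of all 10 pairs (no filter, separate fits, limma-voom, DESeq2 or its size factors in edgeR, the run, the index set, the leukocyte score or the replicate block in the model, and without 2 MCA969 tumors of contrary label). C3 and Cr1l kept all 4 of their calls in every one of these fits, and C1s1 kept 6 of 8. For Cd55 no call was kept in all of them. The 12 calls that a single tumor could remove are named with each gene below. With the mean log2 CPM of the leukocyte and macrophage markers as a covariate, a model added after seeing the data, 46 of the 48 calls were kept, and those lost were Cd55 between MCA948 and MCA970 and Cd59a between MCA969 and MCA970.

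C3 is the protein whose cleavage all routes of complement share. Its gene (ENSMUSG00000024164) lies on chromosome 17 at 57203970 to 57228136 (GRCm38, reverse strand). In MCA943 it was found at 218 CPM in W-2G, 154 in a-1D, 165 in a-1G and 258 in a-R. Values in MCA948 ran from 5.58 to 16.8 CPM with a median of 11.8, those in MCA969 from 11.7 to 21.4 CPM with a median of 15.5, and those in MCA970 from 11.7 to 23.4 CPM with a median of 21.04. In MCA972 they were 3.17 CPM in a-1, 23.6 in a-1G, 14.8 in 2G and 7.18 in a-R. Every MCA943 tumor lay far above every other tumor, and the other 4 lines overlapped one another.

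The mean of C3 was 199 ± 48.8 CPM (SD, n = 4) in MCA943 and at most 18.6 ± 5.41 CPM (SD, n = 6), in MCA970, elsewhere. MCA943 exceeded MCA948 18.5-fold (log2 4.21, standard error 0.34, edgeR adjusted p = 1.10e-11) and MCA970 10.7-fold (log2 3.42, standard error 0.37, adjusted p = 6.16e-09), with 12.5-fold and 16.3-fold over MCA969 and MCA972. Within the third run alone, 4 MCA943 tumors exceeded 6 MCA948 tumors by 3.99 on the log2 scale (standard error 0.27, adjusted p = 3.85e-07). With the run as a covariate the log2 fold changes over MCA969 and MCA970 were 2.47 and 2.37, and all 4 calls were kept. None of the 6 pairs among the other lines was called with all tumors, and without MCA972 a-1G MCA970 was called above MCA972 (log2 1.15). With the run as a covariate, MCA948 was called below MCA969 (log2 -1.54, edgeR adjusted p = 0.0434, against -0.57 without it) and MCA970 (-1.64, adjusted p = 0.00766), and within the second run 2 MCA948 tumors were below 2 MCA969 tumors by 1.54 (log2 -1.54, adjusted p = 0.0202). The closest was MCA948 against MCA970, with a log2 fold change of -0.79 (adjusted p = 0.0234), which within the second run was -1.63 (2 and 6 tumors, adjusted p = 0.00328).

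The promoter sequences of C3, C1s1 and C1ra are shown because these genes had the 3 largest differences between MCA943 and MCA948. RefSeq entries for GRCm38.p6 were found for 6 members, and none for C4b, Cfb and Serping1. Each window holds 250 bases before the annotated RefSeq start and the first 30 of the transcript, 280 in all. For C1ra this start is at 124512621, while the gene in GENCODE begins at 124512405. Most of the C1ra window therefore lies within the gene as GENCODE places it. It is given 5′ to 3′ on the strand of the gene, at chr17:57228107-57228386 (reverse strand) for C3, chr6:124542330-124542609 (reverse strand) for the first of 2 starts of C1s1 and chr6:124512371-124512650 (forward strand) for C1ra. Capitals mark matches to any of the motifs searched.
C3: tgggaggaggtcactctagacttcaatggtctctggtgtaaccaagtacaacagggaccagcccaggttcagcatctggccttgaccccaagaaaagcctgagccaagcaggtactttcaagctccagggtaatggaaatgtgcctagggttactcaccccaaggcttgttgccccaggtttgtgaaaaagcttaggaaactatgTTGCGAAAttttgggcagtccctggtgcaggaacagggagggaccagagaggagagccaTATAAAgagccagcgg
C1s1: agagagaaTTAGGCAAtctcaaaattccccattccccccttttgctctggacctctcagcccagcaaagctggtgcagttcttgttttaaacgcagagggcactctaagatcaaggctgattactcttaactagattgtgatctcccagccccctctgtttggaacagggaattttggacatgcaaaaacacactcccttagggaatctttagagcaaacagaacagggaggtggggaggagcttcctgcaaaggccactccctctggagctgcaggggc
C1ra: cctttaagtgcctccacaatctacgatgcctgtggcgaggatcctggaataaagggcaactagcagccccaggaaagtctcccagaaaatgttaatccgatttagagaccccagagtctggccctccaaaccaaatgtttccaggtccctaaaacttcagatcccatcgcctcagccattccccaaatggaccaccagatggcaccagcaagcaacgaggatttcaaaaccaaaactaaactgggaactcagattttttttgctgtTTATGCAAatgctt

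Both strands were searched for TTCNNNGAA (GAS, bound by STAT factors), the ISRE (bound by interferon regulatory factors), TATAAA (the TATA box), CCAAT, the NF-kB site of 10 bases and TTGCNNAA (C/EBP). No match of one motif overlapped another. The C/EBP letters were found once in each of the 3 windows shown, as TTGCGAAA from -45 to -38 in C3, as TTAGGCAA from -242 to -235 in C1s1 and as TTATGCAA from 17 to 24 in C1ra, counted from the annotated start. They were found in 10.4% of the 32851 windows of this length. TATAAA was found in C3 from 15 to 20 and occurs in 13.1% of all windows. GAS letters occur in 7.83% and ISRE letters in 3.28% of windows, and neither was found in C3, C1s1 or C1ra. NF-kB letters (1.54%) and CCAAT (36.1%) were not found there either. In Cd59a, the ISRE letters were found as GAAAGGGAAA from -187 to -178. The windows of Cd55 and Cr1l held none of the motifs, nor did that of the second C1s1 start.

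C1s1 and C1ra encode the classical proteases C1s and C1r, which sit in one complex with C1q. The genes are neighbours on chromosome 6 in GRCm38, C1s1 (ENSMUSG00000038521) on the reverse strand from 124530345 to 124542359 and C1ra (ENSMUSG00000055172) on the forward strand from 124512405 to 124523443. C1s1 was found in MCA943 at 196 CPM in W-2G, 204 in a-1D, 185 in a-1G and 303 in a-R. In MCA948 it ran from 6.69 to 13.9 CPM with a median of 9.77, in MCA969 from 16.3 to 74.4 CPM with a median of 33.1, and in MCA970 from 44.3 to 86.1 CPM with a median of 52.7. The MCA972 tumors had 55.8 CPM in a-1, 65.6 in a-1G, 76.6 in 2G and 120.0 in a-R. All MCA943 tumors lay above, and all MCA948 tumors below, the tumors of every other line, while MCA969, MCA970 and MCA972 overlapped.

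C1s1 was 23.3-fold higher in MCA943 than in MCA948 (log2 4.54, standard error 0.30, edgeR adjusted p = 1.03e-13), and 5.69-fold, 3.70-fold and 2.79-fold higher than in MCA969, MCA970 and MCA972. In MCA948 it was 4.09-fold, 6.30-fold and 8.34-fold lower than in these 3 lines. It was also lower in MCA969 than in MCA972 (log2 -1.03, standard error 0.28, adjusted p = 0.00312), a call that was lost without any of 5 tumors (MCA969 a-1D, a-2D, a-R and W-2D, and MCA972 a-R) and was -0.76 without the last of these. With the run as a covariate the difference between MCA943 and MCA972, lines that share no run, was 1.66 with an adjusted p of 0.0526 in edgeR. Of the exon bases of C1s1, 18.4% overlap Gm16567 on the opposite strand, whose counts summed to at most 73 per line. Its paralog C1s2 had at most 27 counts per line against at least 2814 for C1s1.

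C1ra had 78.6 CPM in MCA943 W-2G, 69.7 in a-1D, 68.9 in a-1G and 117 in a-R. It ran from 3.88 to 6.58 CPM in MCA948 with a median of 4.76, from 11.4 to 35.3 CPM in MCA969 with a median of 19.1, and from 23.2 to 57.9 CPM in MCA970 with a median of 39.2. In MCA972 it was found at 29.9 CPM in a-1, 32.1 in a-1G, 31.3 in 2G and 58.5 in a-R. As for C1s1, every MCA943 tumor was above and every MCA948 tumor below all tumors of the other lines.

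MCA943 exceeded MCA948 17.4-fold in C1ra (log2 4.12, standard error 0.27, edgeR adjusted p = 1.08e-13). It exceeded MCA969, MCA970 and MCA972 3.88-fold, 2.12-fold and 2.21-fold, and MCA948 was 4.48-fold, 8.19-fold and 7.88-fold below them. The log2 difference between MCA943 and MCA970 was 1.09, and fell under 1 without MCA970 a-2D (0.99), MCA970 a-2G (0.97) or MCA943 a-R (0.88). That between MCA943 and MCA972 was 1.14, was 0.94 without MCA943 a-R, and with the run as a covariate was 1.31 with an adjusted p of 0.106. MCA969 was called below MCA970 (-1.01) without MCA969 W-1D. Counts of the paralog C1rb were at most 5 per line.

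Per length of gene, C1s1 was the most abundant member in all 5 lines, from 3.05 ± 0.70 RPKM (SD, n = 8) in MCA948 to 70.9 ± 17.5 RPKM (SD, n = 4) in MCA943, and Cfb was the least abundant in all 5. The ratio of C1s1 to C1ra in RPKM had a median of 2.51 in MCA943 (2.38 to 2.79) and between 1.46 and 1.95 in the other lines.

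**Figure D3:**
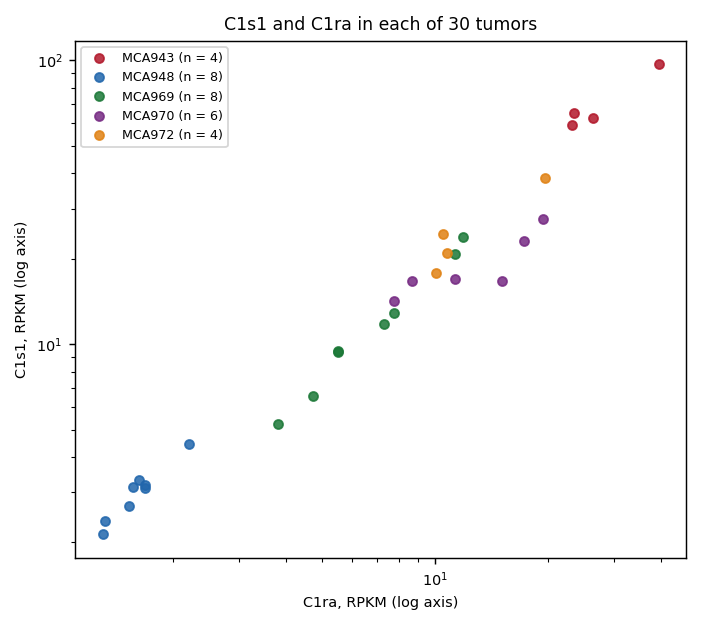
RPKM of C1s1 against RPKM of C1ra on log axes, with 1 point for each of the 30 tumors, coloured by MCA line. MCA948 lies lowest in both genes and MCA943 highest, and within MCA948, MCA969 and MCA970 tumors with more C1ra also had more C1s1.

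C1s1 and C1ra also varied together among tumors of one line. On log2(CPM + 0.1), Pearson's r was 0.992 over the 8 MCA969 tumors (two-sided exact permutation p = 5e-05, adjusted p = 0.00536 over 108 relations) and Spearman's rho was 0.976 (exact p = 0.000397, adjusted p = 0.0429). Over the 8 MCA948 tumors r was 0.969 (exact permutation p = 0.00057, adjusted p = 0.0308) and rho was 0.881 (exact p = 0.00724, adjusted p = 0.386). Over the 6 MCA970 tumors r was 0.865 (exact permutation p = 0.0292, adjusted p = 0.35) and rho was 0.943 (exact p = 0.0167).

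Without the 2 tumors farthest from the median, r was 0.983 in MCA969, 0.905 in MCA948 and 0.645 in MCA970. The 108 relations were those of 36 pairs of members in 3 lines, and these were the only 2 with an adjusted p of r under 0.05. After centring each line on its mean, r between C1s1 and C1ra over the 30 tumors was 0.93, followed by 0.59 for Cd59a and Cr1l and 0.58 for C3 and C4b. The lowest was -0.49, for C3 and Cd59a. These centred values are descriptions over tumors that share lines, libraries and scaling, and both genes of a pair are read from the same library.

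C4b encodes the C4 cleaved by C1s, and Cfb encodes factor B, the protease of the alternative route. Both are reverse-strand genes of chromosome 17 in GRCm38, C4b (ENSMUSG00000073418) from 34728380 to 34743882 and Cfb (ENSMUSG00000090231) from 34856374 to 34862518. C4b was found at 13.7 CPM in MCA943 W-2G, 13.03 in a-1D, 8.88 in a-1G and 29.1 in a-R. It ran from 1.86 to 6.43 CPM in MCA948 with a median of 4.31, from 2.04 to 10.2 CPM in MCA969 with a median of 6.81, and from 3.35 to 13.8 CPM in MCA970 with a median of 9.76. In MCA972 it was 4.48 CPM in a-1, 13.6 in a-1G, 10.8 in 2G and 8.07 in a-R. Only MCA943 and MCA948 did not overlap.

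The difference in C4b between MCA943 and MCA948 was 1.96 on the log2 scale (standard error 0.38, edgeR adjusted p = 5.34e-05), and that between MCA943 and MCA969 was 1.25 (standard error 0.38, adjusted p = 0.0055). MCA948 was lower than MCA970 (-1.23, standard error 0.35) and MCA972 (-1.15, standard error 0.39). Without MCA943 a-R the difference from MCA969 was 0.80 and was no longer called, and without MCA972 a-1G that between MCA948 and MCA972 was -0.87. With the run as a covariate the latter was 0.14 (adjusted p = 0.912), of opposite sign, and MCA969 was called below MCA970 (-1.75, adjusted p = 0.00979, against -0.53 without the run). Within the second run 2 MCA969 and 6 MCA970 tumors differed by -1.74 (adjusted p = 0.0184). C4a, a close paralog, had between 53 and 163 counts per line against at least 1228 for C4b.

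Cfb was scarce, with 1 to 34 counts per tumor. MCA943 had 0.339 CPM in W-2G, 0.296 in a-1D, 0.302 in a-1G and 0.833 in a-R, MCA972 had 0.109 in a-1, 0.269 in a-1G, 0.365 in 2G and 0.390 in a-R, and the other 3 lines ran from 0.0201 to 0.621 CPM. Medians were 0.0971 CPM in MCA948, 0.220 in MCA969 and 0.338 in MCA970. All lines overlapped at least 1 other line. MCA943 was above MCA948 by 1.61 on the log2 scale (standard error 0.50, edgeR adjusted p = 0.00583), which without MCA943 a-R was 1.09 with an adjusted p of 0.0924. MCA948 was below MCA970 by 1.37 (log2 -1.37, standard error 0.46, adjusted p = 0.00988). The call of MCA943 over MCA969 (1.12, adjusted p = 0.0456) was lost in 11 of the 30 fits that left out a tumor (MCA969 W-2G, W-2D, a-2D or a-R, MCA972 a-1G or 2G, MCA970 W-2D, MCA948 W-1G, W-2D or a-2D, or MCA943 a-R), was lowest without MCA943 a-R (0.60), and was -0.19 with the run as a covariate. Without MCA948 W-1D, MCA948 was also called below MCA969 (-1.03) and MCA972 (-1.49), and with the index set as a covariate MCA969 was called below MCA970 (-1.27). Exons of Cfb share 79.5% of their 2825 bases on the same strand with the read-through gene Gm20547, which had 2 counts in all, both in MCA943. How reads on both were handled was not given in the sources used here, and the level of Cfb is uncertain to that extent.

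Serping1 encodes the C1 inhibitor, which inactivates C1r and C1s in plasma (ENSMUSG00000023224, chromosome 2, reverse strand, 84765387 to 84775444 in GRCm38). It was found in MCA943 at 61.8 CPM in W-2G, 53.8 in a-1D, 35.0 in a-1G and 119 in a-R. It ran from 2.35 to 14.5 CPM in MCA948 with a median of 3.84, from 16.5 to 31.1 CPM in MCA969 with a median of 18.7, and from 13.3 to 29.3 CPM in MCA970 with a median of 24.1. MCA972 had 7.56 CPM in a-1, 23.2 in a-1G, 20.98 in 2G and 22.6 in a-R. All MCA943 tumors lay above all others, and MCA948 overlapped MCA970 and MCA972 but not MCA969.

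Serping1 was 12.2-fold higher in MCA943 than in MCA948 (log2 3.61, standard error 0.36, edgeR adjusted p = 8.51e-10) and 3.32-fold, 2.86-fold and 3.63-fold higher than in MCA969, MCA970 and MCA972. MCA948 was 3.66-fold below MCA969, 4.25-fold below MCA970 and 3.35-fold below MCA972. The first and the last of these were not called with the run as a covariate, where they were -0.996 (adjusted p = 0.223) and -0.80 (adjusted p = 0.417) on the log2 scale. Within the second run, 2 MCA948 and 2 MCA969 tumors differed by -0.98 (adjusted p = 0.259) and 2 MCA948 and 6 MCA970 tumors by -1.42, which was called.

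The 3 regulators bound to the cell membrane did not share one pattern. Cr1l encodes Crry, which in rodents limits C3 convertases on the cell (ENSMUSG00000016481, chromosome 1, reverse strand, 195097382 to 195131586). Its level varied little within lines. The 4 MCA943 tumors had 100.04 CPM in W-2G, 99.4 in a-1D, 100.01 in a-1G and 103 in a-R. MCA948 ran from 20.1 to 30.4 CPM with a median of 24.5, MCA969 from 32.1 to 41.3 with a median of 33.0 and MCA970 from 35.3 to 42.4 with a median of 39.8. MCA972 had 30.6 CPM in a-1, 27.9 in a-1G, 31.7 in 2G and 33.0 in a-R. Every MCA943 tumor had more than 2 times the level of every other tumor.

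Cr1l was higher in MCA943 than in MCA948 by 2.04 on the log2 scale (standard error 0.09, edgeR adjusted p = 3.94e-18), or 4.11-fold. The folds were 2.88 over MCA969, 2.58 over MCA970 and 3.26 over MCA972. MCA948 was lower than MCA969, MCA970 and MCA972 by less than the threshold of fold change, with log2 values of -0.51 (adjusted p = 5.37e-07), -0.67 (adjusted p = 1.01e-08) and -0.33 (adjusted p = 0.00174).

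Cd55 encodes decay-accelerating factor, which dissociates convertases (ENSMUSG00000026399, chromosome 1, reverse strand, 130439027 to 130462744). It was scarce, with 4 to 109 counts per tumor. MCA943 had 2.07 CPM in W-2G, 0.789 in a-1D, 0.227 in a-1G and 0.245 in a-R. MCA972 had 1.34 in a-1, 2.62 in a-1G, 2.32 in 2G and 3.03 in a-R. MCA948 ran from 0.104 to 0.724 CPM with a median of 0.572, MCA969 from 0.340 to 1.49 with a median of 0.968 and MCA970 from 0.368 to 1.19 with a median of 1.02. MCA972 was the highest line and did not overlap MCA948 or MCA970.

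In edgeR, Cd55 was lower than in MCA972 in MCA948 (log2 -2.32, standard error 0.44, adjusted p = 4.62e-05), MCA943 (-1.49, standard error 0.54, adjusted p = 0.019), MCA969 (-1.30, standard error 0.43, adjusted p = 0.0127) and MCA970 (-1.28, standard error 0.47, adjusted p = 0.0255). It was also lower in MCA948 than in MCA969 (-1.01, adjusted p = 0.0277) and MCA970 (-1.04, adjusted p = 0.03). The call between MCA943 and MCA972 was lost without MCA972 a-R, MCA943 a-1G or MCA943 a-R, and was -2.44 without MCA943 W-2G. The call of MCA948 against MCA969 was lost in 9 of the 30 fits without 1 tumor (MCA969 W-1D, W-2G, a-1D or a-2D, MCA948 W-1G, W-2G or a-2G, MCA972 a-1G, or MCA943 a-1G), that against MCA970 in 6 (MCA948 W-1G, W-2G or a-2G, or MCA970 W-R, a-2D or a-2G), and that of MCA970 against MCA972 in 3 (MCA972 a-1G or a-R, or MCA970 W-2D). Without MCA943 a-R, MCA943 was called above MCA948 (1.14). Of the 6 calls, 5 were lost with the run as a covariate, MCA948 against MCA972 among them (-2.19, adjusted p = 0.0866).

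Cd59a encodes CD59, which blocks the membrane attack complex (ENSMUSG00000032679, chromosome 2, forward strand, 104095801 to 104115354). MCA943 had 1.66 CPM in W-2G, 1.63 in a-1D, 3.02 in a-1G and 1.57 in a-R. MCA972 had 3.58 in a-1, 2.71 in a-1G, 2.40 in 2G and 4.76 in a-R. MCA948 ran from 0.304 to 1.74 CPM with a median of 0.561, MCA969 from 1.52 to 3.61 with a median of 2.75 and MCA970 from 1.13 to 1.94 with a median of 1.17. MCA972 and MCA969 were the highest lines and overlapped, and MCA972 did not overlap MCA948 or MCA970.

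Cd59a was lower in MCA948 than in MCA943 (log2 of MCA943 over MCA948 1.496, standard error 0.32, edgeR adjusted p = 0.000172), MCA969 (-1.95, standard error 0.28, adjusted p = 4.95e-07) and MCA972 (-2.27, standard error 0.31, adjusted p = 2.99e-07). It was lower in MCA970 than in MCA972 by 1.38 (log2 -1.38, adjusted p = 0.00109). MCA969 was above MCA970 by 1.06 (adjusted p = 0.00243), which was 0.99 without MCA969 W-2G or W-2D, 0.95 with the replicate block and 0.64 (adjusted p = 0.0499) with the leukocyte score. With the block, MCA970 against MCA972 was -0.94 (adjusted p = 0.259). MCA943 over MCA970 was 0.60 and not called, and was 1.96 with the run (edgeR adjusted p = 0.000942) and 1.46 with the index set (adjusted p = 0.00117) as a covariate, both called. MCA948 against MCA970 was -0.89 and not called. Within the second run (2 and 6 tumors) it was 0.02, while without MCA948 a-R it was called (-1.22), and without MCA943 a-1G, MCA943 was called below MCA972 (-1.09). The other copy in the mouse genome, Cd59b, had 28 to 231 counts per line against 202 to 792 for Cd59a, and reads shared by both cannot be assigned with certainty.

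Both lines classed as non-sensitive were compared with the 3 sensitive lines, and 0 of the 9 members were called in one direction in all 6 pairs. Among all genes, 0.652% were called higher in non-sensitive lines and 0.225% lower in all 6 pairs. All members but Cd55 and Cd59a had their highest mean in MCA943, and Cd59a had a higher mean in MCA969 (2.70 CPM) than in MCA943 (1.97 CPM). Sums over the members are weighted to the abundant ones. The summed member level of MCA969, 105 to 197 CPM, overlapped that of MCA970 (169 to 238) and MCA972 (137 to 258). MCA943 tumors summed to between 566 and 933 CPM and MCA948 tumors to between 50.8 and 78.7 CPM.

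Other genes moved with the members. The 8 genes listed as induced by interferon-γ summed to 1120 to 3069 CPM in MCA943, 93.1 to 177 CPM in MCA948, 198 to 582 CPM in MCA969, 487 to 971 CPM in MCA970 and 330 to 574 CPM in MCA972. All 8 were called higher in MCA943 than in MCA948, and 7, 6 and 7 of them higher than in MCA969, MCA970 and MCA972. Between 6 and 7 of them were called lower in MCA948 than in each of MCA969, MCA970 and MCA972.

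The sum of the 6 fibroblast markers was also highest in MCA943 (53720 to 61207 CPM, median 56294) and had its lowest median in MCA948 (11519 to 16590 CPM, median 14070), which overlapped MCA969 (8739 to 16196 CPM, median 14965). It was 22824 to 33732 CPM in MCA970 and 29376 to 39564 CPM in MCA972. The 6 markers of T and NK cells, of which 4 passed the filter, summed to 1.51 to 10.2 CPM in MCA943 (median 3.59), 0.150 to 7.12 CPM in MCA970 (median 0.708), 0.0327 to 2.60 CPM in MCA948 (median 0.320), 0.0711 to 0.671 CPM in MCA969 and 0.136 to 1.09 CPM in MCA972, so that MCA943 overlapped MCA970 and MCA948, and Ncr1 had no counts in MCA972, where a count of 0 allows up to 3 per library. The sums of the leukocyte and macrophage markers overlapped between all lines, at 25.5 to 115 CPM in MCA943 and 17.7 to 64.7 CPM in MCA948. Of these 8 markers, 5 were called higher in MCA943 than in MCA969 and 4 higher in MCA948 than in MCA969. In MCA969, 6 were called lower than in MCA970 and 1 lower than in MCA972, and 1 was higher in MCA943 than in MCA948. No other call was made for these markers. MCA943 a-R had the lowest leukocyte sum (25.5 CPM) and the lowest fibroblast sum (53720 CPM) of its line. It had the highest endothelial sum (118 CPM) and the highest sum of genes induced by interferon-γ (3069 CPM) of its line. Its C3, C4b, Cfb, C1s1, C1ra and Serping1 were also the highest of the line. The 5 endothelial markers summed to 259 to 484 CPM in MCA970, 53.3 to 118 CPM in MCA943, 18.3 to 338 CPM in MCA948, 58.9 to 188 CPM in MCA969 and 38.6 to 111 CPM in MCA972. The part of interferon-γ targets, T and NK cells, endothelial cells and fibroblast content in the differences between lines was not tested. In bulk tumors, fewer cells that express a gene and less RNA of it per cell cannot be told apart.

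Within lines, the letter W or a in the titles was compared over 26 tumors of 4 lines, 12 with W and 14 with a, in an edgeR model with line and letter. In MCA948 all 4 W tumors lay in the third run, but 2 of the a tumors in the second. In MCA969 all 4 a tumors lay in the first run, but 2 of the W tumors in the second. The W and a tumors of MCA969 also had different index sets. Letter and index set cannot be told apart within that line. No member was called in either direction at an adjusted p under 0.05, with no threshold on the fold change. Of 16557 genes tested, 0.211% were called higher with W and 0.0604% lower. At an unadjusted p under 0.05 there was 1 member, Serping1, and DESeq2 and limma-voom each also gave 1. Serping1 was 7.55 ± 5.20 CPM with a and 3.58 ± 1.29 CPM with W in MCA948 (SD, n = 4 each), 22.9 ± 5.78 and 17.7 ± 1.44 CPM in MCA969 (n = 4 each), and 26.7 ± 2.82 and 20.5 ± 6.22 CPM in MCA970 (n = 3 each). In MCA943 it was 69.3 CPM over 3 tumors with a and 61.8 CPM in the only one with W. The log2 difference was -0.55 (standard error 0.22, edgeR adjusted p = 0.528).

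Of the 4 T and NK markers tested, 3 were called higher with W, with log2 values of 5.56 for Ncr1 (edgeR adjusted p = 6.16e-06), 3.497 for Nkg7 (adjusted p = 0.000165) and 2.36 for Klrb1c (adjusted p = 0.00154). None of the 5 endothelial markers was called, and 4 had an unadjusted p under 0.05, with a median log2 difference of -0.85. The part of these cells in the levels of Serping1 was not tested.

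The log2 difference of C3 between W and a was 0.32 (standard error 0.17, edgeR adjusted p = 0.749), and those of the other 7 members lay between -0.25 and 0.08. The median was -0.07 over the members and -0.01 over all genes. Whether the difference by letter differed between lines was tested as an interaction, which called 0 members and 0.0181% of all genes. At an unadjusted p under 0.05 there were 3 members, Cd59a (adjusted p = 0.422), Cr1l (adjusted p = 0.445) and Cd55 (adjusted p = 0.460), and DESeq2 gave 3. Cd59a was 0.959 CPM with a and 0.437 with W in MCA948, and 2.22 and 3.18 CPM in MCA969, where letter and index set coincide. MCA943 has only 1 tumor with W, and without this line the unadjusted edgeR p of Cd55 was 0.989.

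**Figure D4:**
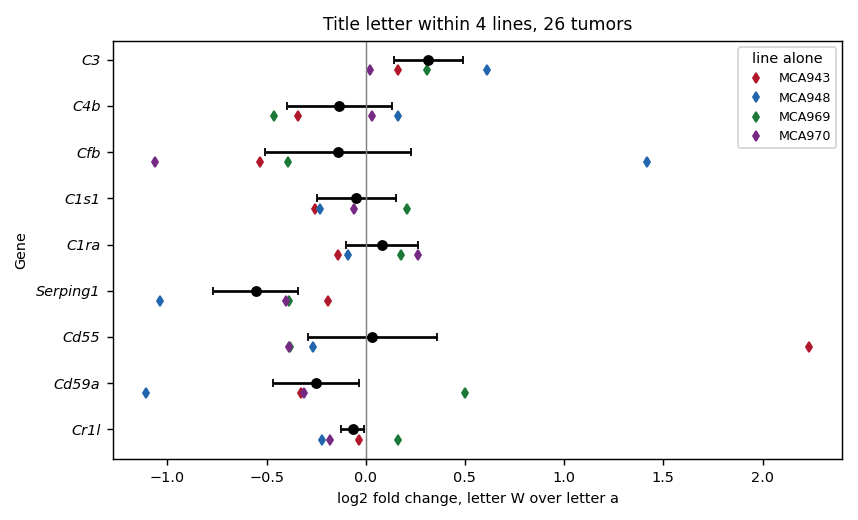
Log2 fold change of each member for the letter W over a, on the x axis. Black points are estimates over 26 tumors with bars of 1 standard error, and coloured diamonds are the estimates of each line alone, MCA943 having 1 tumor with W. The estimates lie between -0.55 for Serping1 and 0.32 for C3.

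Beside the members, 46 other genes of the complement system were listed, of which 30 passed the filter. The call counts of these 30 did not have one direction over all pairs. In each pair with MCA948, more of them were lower than higher in MCA948, as was so among all genes. The counts were 14 higher and 2 lower in MCA943 than in MCA948 (17.7% and 11.3% of all genes) and 9 and 8 against MCA969 (12.1% and 14.9%). Against MCA970 they were 6 and 7 (12.6% and 14.8%), and against MCA972 they were 8 and 9 (12.2% and 13.4%). In MCA948, 6 were higher and 9 lower than in MCA969 (3.91% and 16.8% of all genes). Against MCA970 they were 3 and 14 (9.64% and 19.8%), and against MCA972 they were 2 and 12 (8.27% and 18.5%). For MCA969 the counts were 6 and 12 against MCA970 (10.7% of all genes in each direction) and 3 and 8 against MCA972 (10.3% in each). For MCA970 against MCA972 they were 3 and 4 (8.56% and 9.01%). None of the 30 was called between the letters over the 26 tumors. Within MCA948, in the model with the interaction, Masp1 (described below) was lower with W (log2 -1.72, edgeR adjusted p = 0.0143). Its interaction was not called (edgeR adjusted p = 0.112).

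C2, which pairs with C4 in the classical convertase, had the same order at the extremes as the proteases. It was 42.5 ± 9.19 CPM in MCA943, 1.71 ± 0.689 CPM in MCA948 and between 5.73 and 6.48 CPM on average in the other lines (log2 of MCA943 over MCA948 4.64, standard error 0.28, edgeR adjusted p = 1.41e-14). Its exons share 42.8% of their bases with Gm20547. Hc, which encodes C5, was higher in MCA943 (6.56 ± 1.84 CPM) than in every other line, where means were 0.746 to 2.45 CPM. Csmd1, a membrane regulator, had 10.5 ± 3.27 CPM in MCA943 and at most 0.111 CPM on average elsewhere. C5ar2, a receptor of C5a named here after its values were seen, was also called higher in MCA943 than in all 4 lines.

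Other genes had different orders. Masp1, a protease of the lectin route, was 79.2 ± 8.89 CPM in MCA972, 32.9 ± 3.84 in MCA970, 26.4 ± 8.17 in MCA969, 2.93 ± 1.09 in MCA943 and 1.18 ± 0.837 in MCA948. Colec12, a scavenger receptor with a collectin domain, was 508 ± 42.4 CPM in MCA972 and 451 ± 73.7 in MCA970, against 122 ± 17.9 in MCA943 and 114 ± 33.7 in MCA948. Clu, which encodes clusterin, a fluid-phase regulator of the terminal complex, was 294 ± 79.1 CPM in MCA969 and 4.95 ± 0.775 CPM in MCA948, and all 10 pairs were called.

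Clu and Masp1 were, with C2, also lower in MCA948 than in all 4 other lines, as were Cd59b and Cpn2, named here after their values were seen. Cfp, which encodes properdin, was between 4.65 and 7.27 CPM on average, and no pair was called. Of the terminal components C7 was 1.53 CPM on average in MCA943 and at most 0.841 elsewhere, and C8g was 0.312 to 0.765 CPM. The complement receptor subunit Itgb2 was 1.95 to 8.85 CPM on average, Itgam was 0.362 to 1.72 CPM, and C3ar1, the receptor of C3a, was 1.12 to 4.24 CPM.

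**Figure D5:**
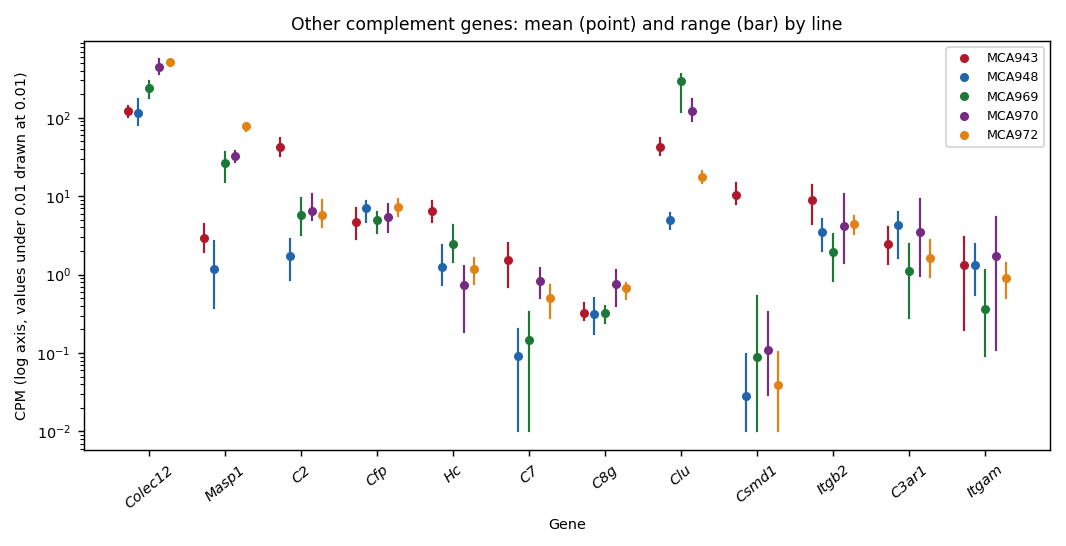
Mean CPM by MCA line, on a log axis, of the named complement genes beside the 9 members; points are means, bars run from the lowest to the highest tumor, and values under 0.01 are drawn at 0.01. C2, Hc and Csmd1 are highest in MCA943, Clu in MCA969 and Masp1 and Colec12 in MCA972.

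The genes whose pattern across tumors was most like that of C3, after centring each line on its mean, were H2-Q5 (r = 0.68), Rgs14 (0.66), Tmem177 (0.66), Rala (0.65) and Adgrd1 (0.64), over 30 tumors. The relation was not the same in each line. For H2-Q5, r was 0.86 in MCA948, 0.34 in MCA969 and -0.25 in MCA970, and for Rala it was 0.49, 0.67 and 0.80. These are descriptions of tumors that share lines and scaling.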

How the data were processed

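Per the labels, the authors used STAR 2.5.3a with GRCm38 for alignment and featureCounts 1.5.2 for counting per gene, and the column names point to removal of duplicates by molecular identifiers (UMIs). The strand setting, and how reads on 2 genes were counted, are not given in the sources used here. The authors deposited raw counts of 48440 genes in 30 tumors, 27745104 to 46537062 per tumor with a median of 35039383, and GENCODE M21 gave the positions. CPM and RPKM were computed here from the deposited counts and gene lengths.

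Lines and letters were taken from the titles, and sensitivity from the study. In edgeR 4.0.16 (R 4.3.3), counts were scaled by TMM, filtered by filterByExpr with the line as group and fitted robustly with the quasi-likelihood model over all 30 tumors (biological coefficient of variation 0.221). The 10 pairs of lines were tested, then the letter and its interaction with the line in the 26 tumors of 4 lines. Calls between lines needed a p under 0.05 after Benjamini-Hochberg adjustment, and a log2 change of at least 1 in either direction. Calls by letter and by interaction needed the adjusted p only, with no threshold on the fold change. On simulated counts with 200 changed genes, 195 were recovered between lines with 0 false calls, and 199 by letter. The planted changes were larger than the letter difference of any member over the 26 tumors. They were planted in genes more abundant than Cfb and Cd55. How often smaller changes, or changes in scarcer genes, would be found was not tested. Relations of members within lines had exact permutation tests.

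The members and gene lists were chosen with earlier results of these data known. The named genes are all members, the 3 genes of highest mean CPM in each role of the pathway list, and the 5 genes most correlated with C3. One gene that this rule names is not reported here. Alternatives were DESeq2 1.42.0, limma-voom (limma 3.58.1), other size factors, no filter, other fold thresholds, separate fits, the run, index set or title code (such as 1D, 2G or R, of unstated meaning) in the model, and leaving out each tumor. Fits without the 2 MCA969 tumors of contrary label, and with the title letter or the leukocyte score as a covariate, were added after seeing the data. Python 3.11.15 was used for the rest. The study's other experiments were not analysed here. The floor given for a gene without counts covers counting error only. The SDs and standard errors include the spread between tumors.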

Additional observations from a re-analysis of the deposited data

Results flagged for a closer look

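In 13 of 45 groups of a member and a line, 1 tumor stood farther from the others than Dixon's critical value allows. Chance would flag about 1 in 20 groups if values were normally distributed and groups independent. The test used CPM without a log scale, and the groups of a line share their libraries. The 13 cannot be set against that rate as an excess. In MCA943, a-R was the highest in Cfb (0.833 CPM, others 0.296 to 0.339), C1s1 (303 CPM, others 185 to 204) and Cr1l (103 CPM, others 99.4 to 100.04), and a-1G in Cd59a (3.02 CPM, others 1.57 to 1.66). In MCA948, a-R was the highest in C1ra (6.58 CPM, others 3.88 to 5.04) and Cd59a (1.74 CPM, others 0.304 to 0.860), and W-1D in Cfb (0.449 CPM, others 0.0201 to 0.186).

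In MCA972, a-R was the highest in C1ra (58.5 CPM, others 29.9 to 32.1) and a-1 the lowest in Serping1 (7.56 CPM, others 20.98 to 23.2). In MCA969, a-1G was the highest in Serping1 (31.1 CPM, others 16.5 to 21.8). In MCA970, W-1D was the lowest in Serping1 (13.3 CPM, others 23.6 to 29.3), W-2D the lowest in Cd55 (0.368 CPM, others 0.927 to 1.19) and a-1D the highest in Cd59a (1.94 CPM, others 1.13 to 1.18).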

How the results depend on the processing

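Between lines, the 48 calls of members became 47 with DESeq2, 50 with limma-voom, 48 with DESeq2's size factors, 45 without a filter, 41 with the run as a covariate, 47 with the index set, 46 in separate fits, 46 without the 2 MCA969 tumors of contrary label and 47 with the leukocyte score. They were 57 without a threshold on the fold change and 18 where a log2 change of 2 in either direction was required. Leaving out each tumor gave 43 (without MCA943 a-R) to 50 (without MCA948 W-1D). With the code in the titles (letter with 1D, 2G, R and the like, whose meaning is not stated) as a replicate block there were 39. Deviations of 29 same-coded pairs correlated from -0.43 to 0.41 with a median of 0.02. Pairs of different codes were not compared, so these values cannot decide whether the codes pair the tumors. With the run as a covariate 2 differences turned, C4b of MCA948 over MCA972 to 0.14 and Cfb of MCA943 over MCA969 to -0.19, and the cause was not tested. With the title letter as a covariate, 31 calls stood against 32 in the 6 pairs of the 4 lines with both letters. The letter called 0 members in each alternative run, the replicate block included, and 0 to 0 without each tumor. The interaction called 0 members, as it did without MCA943 and in DESeq2's likelihood ratio test, the only alternatives run for it. MCA943 shares no run with MCA969, MCA970 or MCA972, so that these comparisons rest on MCA948 where the run is in the model. Low counts limit Cfb and Cd55.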
